A study of Mus musculus with 2 samples.

Results

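Müller glia are the radial glia of the retina, and a small set of transcription factors sets and keeps their identity. The 10 such genes described here are Sox2, Sox8 and Sox9 (SOX factors with a high-mobility-group domain), Lhx2 (a LIM-homeodomain factor), Nfia, Nfib and Nfix (nuclear factor I proteins), and Rax, Six3 and Six6 (homeodomain factors first expressed in the eye field). They were taken as a named list, and all 10 were present among the 25778 genes of the deposited count table. The data are droplet single-cell RNA sequencing (ScRNA-seq) of whole retina from mice aged 30 days. The Ptbp1-Ctrl library came from a mouse of genotype Chx10Cre (Chx10-Cre with wild-type Ptbp1), and the Ptbp1-KO library from a mouse of genotype Chx10-Cre;Ptbp1lox/lox, so both carried the Cre transgene, a Cre-GFP fusion active in retinal progenitors. There was 1 library per genotype, from an individual female mouse. Differences between genotypes are therefore differences between these 2 libraries and have no replicate check, and the animal, its dissociation and its library cannot be told apart from the genotype.

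In the developing retina Sox2, Lhx2, Rax, Six3 and Six6 act in the progenitors that give rise to neurons and glia alike, and several of them stay on in mature Müller glia. Sox8 and Sox9 are related SOXE factors that promote glial fate in many parts of the nervous system, and the nuclear factor I proteins drive the late step from progenitor to glia. In adult mice, Nfia, Nfib and Nfix together hold Müller glia in a resting glial state, and Lhx2 and Sox2 are needed to keep them quiescent. The protein made from Ptbp1 binds RNA and keeps exons typical of neurons out of messages in other cells. Its loss has been proposed to turn glia into neurons. The comparison here describes the levels of these factors in the cells that carry the name Müller glia in each library.

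The deposited table held 16421 cells of Ptbp1-Ctrl and 14522 of Ptbp1-KO, of which 1720 and 1184 carried the deposited cell type name Müller glia. Depth differed with genotype, with a median of 3333 unique molecular identifiers (UMIs) per Müller glia cell in Ptbp1-Ctrl and 4178 in Ptbp1-KO. Every cell was therefore reduced at random to 1000 UMIs, and cells with fewer were not used, which kept 1663 and 1173 Müller glia. Of 10058 and 9301 rods it kept 5903 and 6175 (58.7% and 66.4%), so rod values at equal depth rest on the deeper rods. Levels are in CPM: the UMIs of a gene were summed over the cells of a library and cell type and scaled to a total of 1000000. Intervals are 95% intervals for counting error alone. A total of 63 cell barcodes occurred in both libraries. The name Müller glia was set beside 9 markers (Glul, Rlbp1, Apoe, Slc1a3, Aqp4, Kcnj10, Dkk3, Clu and Car14). Over all cells so named, their summed level was 27853 (Ptbp1-Ctrl) and 29630 CPM (Ptbp1-KO). In rods, cones, bipolar and amacrine cells it was 229 to 877 CPM. The clusters within the name differed in Glul, as given below. The 6 astrocyte markers summed to 39.1 and 63.1 CPM in Müller glia. Among them Pax2 was at 0 in both libraries, Gfap at 5.41 and 5.97 CPM and Igfbp2 at 3.61 and 3.41 CPM. Aldh1l1 was at 29.5 and 40.1 CPM, S100b at 0 and 6.82 CPM and Pdgfra at 0.601 and 6.82 CPM. Of 4 endothelial markers, Flt1 (903 and 837 CPM) and Kdr (668 and 741 CPM) were high in Müller glia while Cldn5 and Pecam1 lay between 1.80 and 2.56 CPM. Ptbp1, the targeted gene, gave 78 UMIs in Müller glia of Ptbp1-Ctrl (46.9 CPM) and 1 UMI in those of Ptbp1-KO (0.853 CPM), so the library labels held.

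Sox2, Sox8, Sox9 and Lhx2 formed a group close to restricted to Müller glia in both libraries. Sox2, a SOXB1 factor of neural stem cells, had a Müller glia level of 333 CPM (305 to 361) in the control library and 309 CPM (278 to 343) in the mutant one. In amacrine cells, bipolar cells, cones and rods it stayed below 5 CPM. Sox8 was measured at 120 CPM (104 to 138) and 102 CPM (84.8 to 122) in Müller glia. Outside Müller glia it reached at most 5.21 CPM, in bipolar cells of Ptbp1-Ctrl, and at 1000 UMIs per cell no Sox8 UMI was found in amacrine cells of either library. The Müller glia level was therefore at least 25.1-fold and 30.4-fold higher than that of amacrine cells at this depth, while all UMIs gave 3 Sox8 UMIs in the amacrine cells of each library. Neither gene could be ranked across the 4 neuronal types, whose neighbouring intervals overlapped throughout.

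Sox9, the SOXE factor most used as a Müller glia marker, stood at 545 CPM (510 to 582) and 483 CPM (444 to 525) in Müller glia. Its next highest level was in bipolar cells, at 21.5 CPM (16.6 to 27.4) and 19.5 CPM (14.5 to 25.8), about 4% of the glial level in both libraries (3.94% and 4.04%). In rods it was 4.57 and 3.24 CPM, and the bipolar interval lay above the rod interval in each library. Lhx2 was measured at 398 CPM (368 to 430) and 379 CPM (345 to 416) in Müller glia and at no more than 8.97 CPM in any of the other 4 types. RNA released from broken Müller glia gives a yardstick for such low values: Glul, Rlbp1 and Apoe appeared in rods at 0.417% to 1.25% of their Müller glia level. Sox2 in rods was at 0.815% and 0.942% of its Müller glia level, Lhx2 at 0.596% and 1.11% and Sox9 at 0.839% and 0.670%, so these rod values are at background and are not read as expression.

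These 4 genes were the members whose Müller glia level was at least 4-fold above each of the other 4 types in both libraries, counting a type with fewer than 3 UMIs at the floor of 3. Of the 4191 genes with a mean of at least 50 CPM in Müller glia, 383 (9.14%) met the same rule. The lowest of their ratios was 23.1-fold where both counts were above 3, for Sox8 over bipolar cells of Ptbp1-Ctrl. The other 6 members were shared with at least 1 neuronal type.

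**Figure D1:**
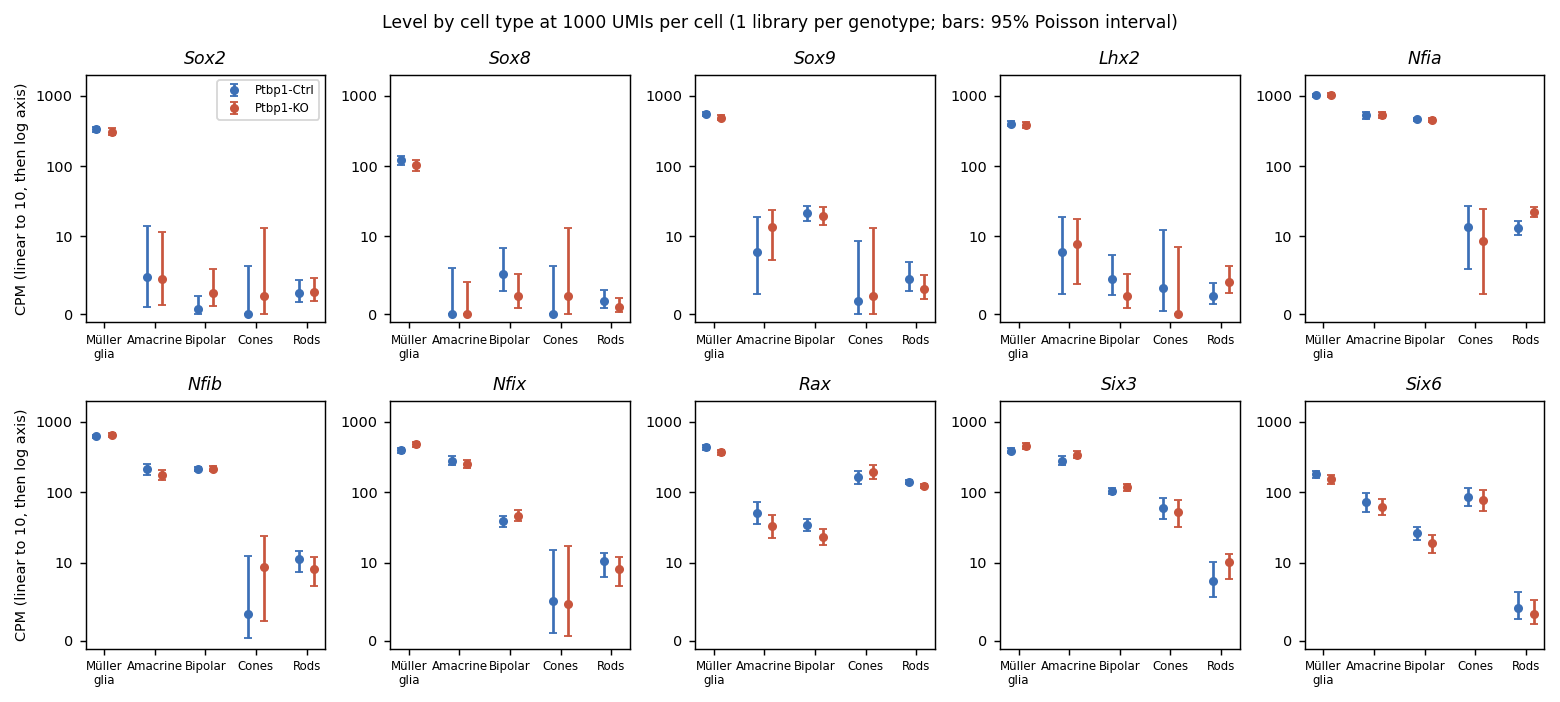
Each panel plots 1 gene, with cell types on the horizontal axis and CPM at 1000 UMIs per cell on the vertical axis (linear up to 10, logarithmic above), blue for Ptbp1-Ctrl, red for Ptbp1-KO, and bars for the 95% Poisson interval. Sox2, Sox8, Sox9 and Lhx2 drop from at least 102 CPM in Müller glia to at most 21.5 CPM elsewhere, whereas the other 6 genes stay above 50 CPM in at least 1 neuronal type.

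The nuclear factor I genes were high in Müller glia and also present in amacrine and bipolar cells, with rods and cones low. Nfia stood at 1019 CPM (971 to 1069) and 1020 CPM (963 to 1079) in Müller glia of the 2 libraries. Amacrine cells had 525 and 536 CPM and bipolar cells 461 and 455 CPM, and the intervals of these 2 neuronal types overlapped in Ptbp1-Ctrl but not in Ptbp1-KO. Nfib gave 622 CPM (585 to 661) and 654 CPM (608 to 702) in Müller glia. It was lower, with overlapping intervals in the 2 neuronal types, at 213 and 176 CPM in amacrine and 216 and 217 CPM in bipolar cells. Nfix separated them: after 394 CPM (364 to 425) and 484 CPM (445 to 526) in Müller glia it was 283 and 253 CPM in amacrine cells but 39.1 and 46.7 CPM in bipolar cells. In rods and cones the 3 genes ranged from 3.40 to 22.3 CPM.

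The 3 eye-field homeodomain genes differed from one another in which neurons kept them. Rax, required for the first formation of the eye, stood at 434 CPM (403 to 467) and 368 CPM (334 to 405) in Müller glia, then in cones at 163 CPM (132 to 199) and 195 CPM (156 to 242). Rods followed with 140 CPM (130 to 150) and 122 CPM (114 to 131). Rax was thus a factor of Müller glia and photoreceptors, with 23.1 to 51.2 CPM in amacrine and bipolar cells, and its rod level was 32.2% and 33.2% of the glial one, far above the 0.417% to 1.25% of the free RNA yardstick. Six3 took the opposite course: 392 CPM (363 to 423) and 456 CPM (418 to 496) in Müller glia, 282 CPM (242 to 326) and 343 CPM (306 to 384) in amacrine cells, 105 and 118 CPM in bipolar cells, 59.4 and 51.8 CPM in cones, and 7.62 and 10.2 CPM in rods. Its 5 types kept this order in both libraries with no overlap between neighbouring intervals. Six6, the closest relative of Six3, stood at 180 CPM (160 to 201) and 154 CPM (133 to 178) in Müller glia. Cones (86.6 and 77.6 CPM) and amacrine cells (72.0 and 62.8 CPM) came next with overlapping intervals, and rods were at 4.24 and 3.40 CPM.

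The sequence just upstream of the transcription start is shown for 2 members restricted to Müller glia, Sox2 and Sox8, and for 2 shared with neurons, Nfia and Six3. Promoters of 7 of the 10 members were matched in the RefSeq table (build GRCm38.p6, the same assembly as mm10); Sox9, Nfib and Rax had no entry. The 250 bases before the annotated start are given in the direction of transcription, and capitals mark 3 short motifs searched on both strands: ACAAAG (core of SOX sites), TAATTA (core of homeodomain sites) and TTGGCA (nuclear factor I half-site). The intervals are chr3:34649745-34649994 on the plus strand for Sox2, chr17:25570687-25570936 on the minus strand for Sox8, chr4:97581693-97581942 on the plus strand for Nfia and chr17:85620584-85620833 on the plus strand for Six3.
Sox2: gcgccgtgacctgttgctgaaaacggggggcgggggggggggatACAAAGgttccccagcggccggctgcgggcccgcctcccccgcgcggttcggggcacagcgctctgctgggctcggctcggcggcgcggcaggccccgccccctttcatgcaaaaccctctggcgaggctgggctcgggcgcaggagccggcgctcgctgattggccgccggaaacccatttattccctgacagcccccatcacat
Sox8: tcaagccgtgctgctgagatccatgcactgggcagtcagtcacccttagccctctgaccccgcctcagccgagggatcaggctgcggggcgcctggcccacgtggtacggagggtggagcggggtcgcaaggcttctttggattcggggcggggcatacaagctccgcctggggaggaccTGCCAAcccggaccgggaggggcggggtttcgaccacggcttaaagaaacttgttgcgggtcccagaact
Nfia: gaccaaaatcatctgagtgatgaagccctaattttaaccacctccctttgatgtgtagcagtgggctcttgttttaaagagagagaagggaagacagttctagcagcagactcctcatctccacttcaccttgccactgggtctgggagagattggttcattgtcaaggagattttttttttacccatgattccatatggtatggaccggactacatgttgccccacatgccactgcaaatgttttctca
Six3: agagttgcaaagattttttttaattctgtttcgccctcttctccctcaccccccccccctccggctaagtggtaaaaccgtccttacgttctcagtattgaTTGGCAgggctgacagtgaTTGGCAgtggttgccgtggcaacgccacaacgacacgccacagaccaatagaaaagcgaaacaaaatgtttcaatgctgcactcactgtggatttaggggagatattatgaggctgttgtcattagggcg
Sox2 held 1 SOX core, Sox8 held 1 nuclear factor I half-site and Six3 held 2, and none of the 3 motifs was found in this window of Nfia. Among 32851 promoters of the table, 16.5% held the SOX core, 4.84% the homeodomain core and 12.3% the nuclear factor I half-site. A match is a description of the letters and not a binding site. In mm10 (GENCODE) the gene bodies lie at chr3:34650405-34652461 for Sox2, chr17:25565892-25570686 for Sox8, chr11:112782224-112787760 for Sox9, chr2:38339281-38369733 for Lhx2, chr8:84699876-84800344 for Nfix, chr17:85613608-85629302 for Six3 and chr12:72939892-72944899 for Six6. The Sox2, Nfia and Six3 starts in RefSeq differ from the GENCODE gene starts, so these windows belong to the annotated RefSeq transcripts.

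In single cells the members were detected together in Müller glia. At 1000 UMIs per cell, a Müller glia cell showed 3.25 ± 1.54 of the 10 genes in Ptbp1-Ctrl (SD over 1663 cells) and 3.23 ± 1.54 in Ptbp1-KO (SD over 1173 cells). At least 3 members were seen in 66.6% of these cells (64.3 to 68.9) in Ptbp1-Ctrl and 66.3% (63.5 to 69.0) in Ptbp1-KO. Among rods the same was true of 1 cell in each library, of 5903 and 6175. Müller glia with no member detected made up 2.71% (1.98 to 3.60) and 2.64% (1.80 to 3.73), so at this depth the 2 genotypes did not separate.

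The share of Müller glia with a UMI differed from gene to gene in the way the levels did. Sox9 was seen in 36.9% (34.5 to 39.2) and 35.3% (32.6 to 38.1) of Müller glia, against 0.440% and 0.291% of rods. Without thinning the Sox9 shares were 68.6% and 70.9% at median depths of 3333 and 4178 UMIs, and those of rods 0.636% and 0.462% at median depths of 1088 and 1288 UMIs. Nfia was seen in 61.0% (58.6 to 63.3) and 62.2% (59.4 to 65.0) of Müller glia, and Sox8 in 11.2% (9.71 to 12.8) and 9.63% (8.01 to 11.5). For each of these 3 genes the thinned intervals of the 2 genotypes overlapped. Those of Nfix, 32.0% (29.8 to 34.3) and 36.6% (33.8 to 39.4), overlapped by less than 1 percentage point.

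Inside the neuronal types the members were concentrated in particular deposited clusters, which are called here by their number and leading markers. Among amacrine cells, Nfia lay in cluster 15 (Slc6a9 844 and 1000 CPM, Gad1 at most 6.49 CPM) at 1656 and 1398 CPM. Nfix and Nfib lay in cluster 14 (the highest Slc6a9, 1109 and 1318 CPM, with no Gad1 UMI), with Nfix at 691 and 841 CPM and Nfib at 477 and 528 CPM. Cluster 14 had 123 and 112 CPM of Nfia and cluster 15 had 6.49 and 24.1 CPM of Nfix, so the 2 clusters with the glycine transporter gene Slc6a9 carried different nuclear factor I genes. Six3 was highest among amacrine clusters in cluster 6 (Gad1 406 and 401 CPM), at 363 and 422 CPM. Clusters 14 and 15 still had 248 and 289 CPM of Six3 in Ptbp1-KO. The defining starburst markers Chat and Slc18a3 were at 0 in clusters 14 and 15.

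Bipolar cells divided even more sharply. Nfia reached 2660 and 2420 CPM in cluster 12 (the highest Cabp5) and 1781 and 1238 CPM in cluster 20, both above its Müller glia level. Nfib reached 1570 and 1610 CPM in cluster 18, the cluster with the highest Grik1 (10625 and 10195 CPM), a glutamate receptor gene of OFF bipolar cells. Cluster 13 carried Nfia and Nfib together, at 507 and 513 CPM and at 590 and 543 CPM. Clusters 5 and 10, with the highest Prkca (6536 to 8773 CPM), the marker gene of rod bipolar cells, had at most 37.8 CPM of Nfia and 3.90 CPM of Nfib. Six3 was highest among bipolar clusters in cluster 11 (369 and 449 CPM), whose Grm6, the glutamate receptor gene of ON bipolar cells, was the highest of these clusters.

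The low Sox9 signal of bipolar cells was located in the same way. Cluster 18 had 140 CPM (28 UMIs) in Ptbp1-Ctrl and 145 CPM (23 UMIs) in Ptbp1-KO. Cluster 9, the next highest in Grik1, had 50.1 CPM (19 UMIs) and 51.9 CPM (15 UMIs), and cluster 21, the third in Grik1, rested on 6 and 4 UMIs. In the Prkca-high clusters 5 and 10, Sox9 lay between 0 and 2.90 CPM. Glul, the glial enzyme used as a yardstick of free RNA, was 115 and 164 CPM in cluster 18 and 61.9 to 147 CPM in clusters 5 and 10. Sox2 and Sox8, the other SOX members, had no UMI in cluster 18 in either library.

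**Figure D2:**
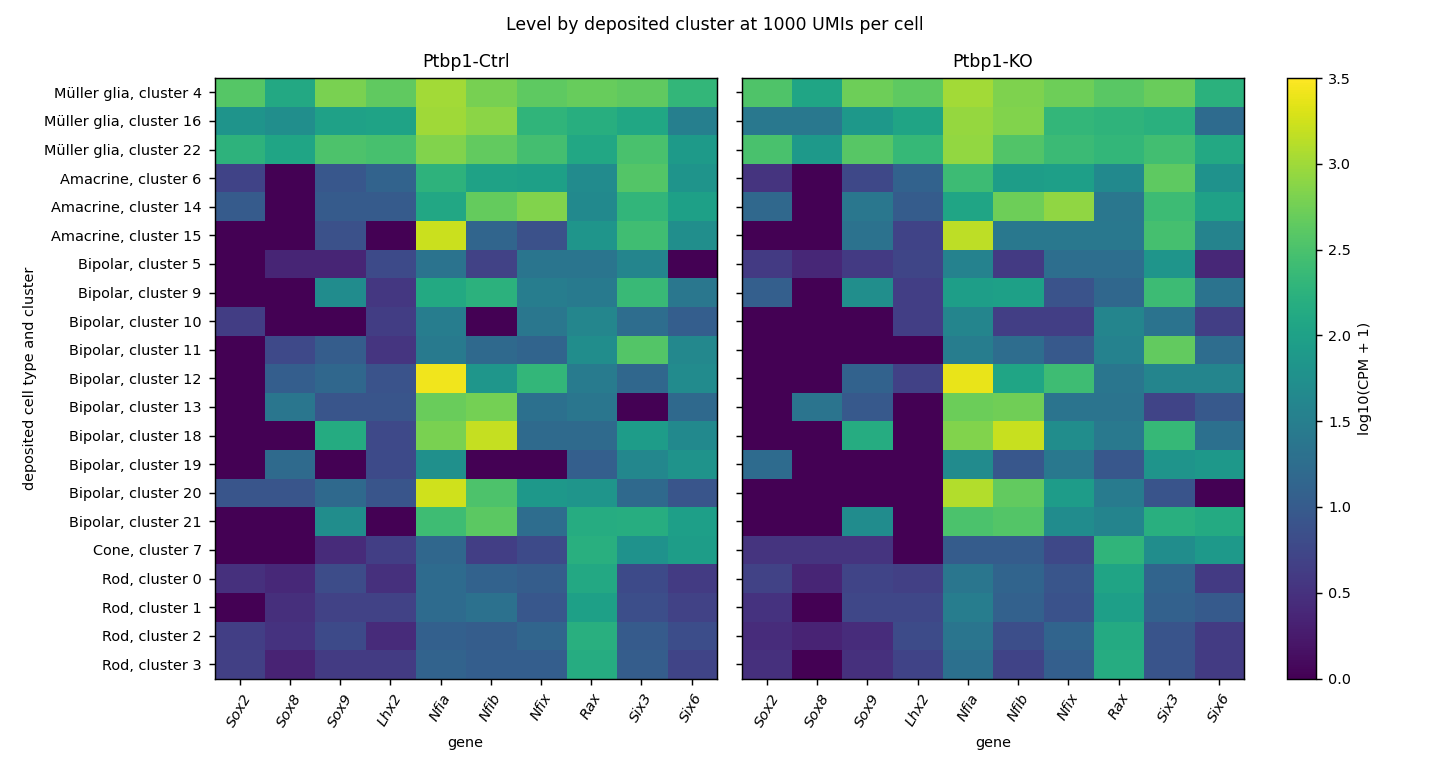
Heat maps of log10(CPM + 1) at 1000 UMIs per cell, with the 10 genes on the horizontal axis and the deposited clusters of at least 50 thinned cells in each library on the vertical axis, for Ptbp1-Ctrl at left and Ptbp1-KO at right. The 2 libraries share their pattern: Nfia peaks in bipolar cluster 12, Nfib in bipolar cluster 18, Nfix in amacrine cluster 14, and Sox2, Sox8 and Lhx2 reach at most 22.4 CPM outside the Müller glia clusters.

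Cells named Müller glia fell into 3 deposited clusters, and the members were not uniform across them. Cluster 4 held 1386 and 994 cells, cluster 16 held 245 and 136, and cluster 22 held 89 and 54. In cluster 16, Sox2 was 62.8 and 23.8 CPM against 380 and 345 CPM in cluster 4, and Sox9 was 99.5 and 71.4 CPM against 620 and 541 CPM. On the log2 scale the Sox2 difference of cluster 16 from cluster 4 was −2.60 (−3.56 to −1.78) and −3.86 (−6.14 to −2.30), and that of Sox9 was −2.64 (−3.38 to −1.99) and −2.92 (−4.06 to −1.98). In all, 8 of the 10 members were at or under 50% of their cluster 4 level in both libraries, a level which 15.2% of 4134 genes were at or under. The 2 exceptions were Nfia, at 1005 and 889 CPM against 1043 and 1045 CPM, and Nfib, at 780 and 683 CPM against 612 and 667 CPM. Lhx2, Rax, Six3, Six6, Sox8 and Nfix lay with Sox2 and Sox9.

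Cluster 16 also differed in other measures that moved with its low factor levels, and their part in them was not tested. Its median depth was 1314 and 1715 UMIs per cell, against 3475 and 4351 in cluster 4, and Glul was 2099 and 2079 CPM against 10623 and 10644 CPM. The mitochondrial share was lower, at a median of 1.67% and 1.41% against 2.70% and 2.01%. Malat1, a nuclear RNA, was 53377 and 54794 CPM against 53459 and 64638 CPM. Nfia and Nfib span 346 kb and 416 kb of the genome, from 97772734 to 98118874 on the plus strand and from 82290173 to 82705750 on the minus strand of chromosome 4 (mm10). The other members span between 2.06 kb (Sox2) and 100.5 kb (Nfix), and whether intronic reads were counted is not stated in the sources used here.

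Cluster 22 was deeper, at a median of 6076 and 7127 UMIs, and carried bipolar genes beside glial ones (Trpm1 831 and 907 CPM against 18.1 and 28.2 CPM in cluster 4, Glul 5551 and 5611 CPM). None of the 10 members was at or under 50% of the cluster 4 level in both libraries there, beside 3.34% of genes. Sox9 was 337 and 389 CPM and Nfia 685 and 852 CPM. Comparisons of genotypes are therefore also given within cluster 4 alone.

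**Figure D3:**
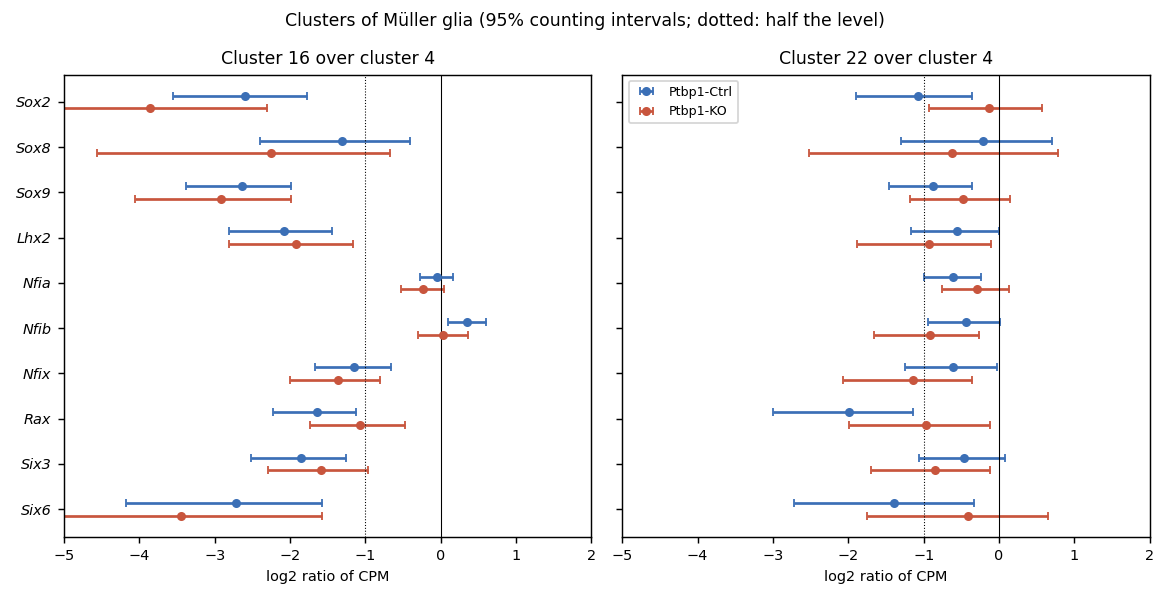
The log2 ratio of CPM in cluster 16 (left) and cluster 22 (right) over cluster 4 is plotted for the 10 genes, with blue for Ptbp1-Ctrl, red for Ptbp1-KO, bars for the 95% counting interval and a dotted line at 50% of the cluster 4 level. In cluster 16 Nfia and Nfib sit near 0 (−0.05 and 0.35 in Ptbp1-Ctrl, −0.23 and 0.03 in Ptbp1-KO) while the other 8 genes lie beyond the dotted line in both libraries. Bars that leave the panel at left end below −5.

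In cells named Müller glia, all 10 factors were within 1.5-fold between genotypes. The authors assigned that name with marker genes in the same counts. A cell that lost these factors could therefore fall outside the group compared. None of the 10 passed 1.5-fold in either direction at equal depth, beside 187 of 4191 genes (4.46%) with a mean of at least 50 CPM. The median log2 ratio of Ptbp1-KO over Ptbp1-Ctrl was −0.09 over the members and −0.02 over the 4191 genes. For 2 members, Nfix and Six3, the counting interval lay above 0, as it did for 10.1% of genes, and for 2, Sox9 and Rax, it lay below 0, as for 12.5% of genes. With 10 members, each of these counts lies about 1 gene above the share of genes at large.

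Rax was the most uniform of the lower genes. The ratio on the log2 scale was −0.24 (−0.41 to −0.06), with 434 CPM in the control and 368 CPM in the mutant library, and −0.30 (−0.48 to −0.12) within cluster 4. Its interval stayed below 0 in each of 10 ways of counting (equal depth and 9 alternatives in depth, random draw, cells and scaling), with ratios from −0.30 to −0.21. Sox9 had a log2 ratio of −0.17 (−0.33 to −0.02), and of −0.24 (−0.32 to −0.17) with all UMIs. Its interval stayed below 0 in 9 of 10 ways of counting, the exception being cells thinned to 700 UMIs. Six6 gave −0.22 (−0.50 to 0.05) and Sox8 −0.23 (−0.57 to 0.10), values whose intervals held 0. With all UMIs they were −0.25 (−0.38 to −0.11) and −0.21 (−0.37 to −0.04). The interval lay below 0 in 3 of 10 ways of counting for Six6 and in 1 for Sox8.

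Nfix was higher in Ptbp1-KO, with a log2 ratio of 0.30 (0.13 to 0.46) between 394 and 484 CPM, and 0.31 (0.14 to 0.48) within cluster 4. Its interval lay above 0 in 8 of 10 ways of counting. Six3 had 0.22 (0.05 to 0.39) at 1000 UMIs per cell but 0.05 (−0.03 to 0.13) with all UMIs and 0.00 at 2000 UMIs per cell. Its interval lay above 0 in 5 of 10 ways of counting, and it held 0 with all UMIs, at 700 and at 2000 UMIs per cell, with a second random draw and without the deepest 5% of cells. Nfia had a log2 ratio of 0.00 (−0.11 to 0.11), the narrowest interval of the 10, and Nfib 0.07 (−0.07 to 0.21). Lhx2 gave −0.07 (−0.25 to 0.11). Sox2 had no settled sign, with −0.10 (−0.30 to 0.09) at equal depth, 0.12 (0.02 to 0.21) with all UMIs and 0.24 with a second random draw of the same depth. The 10 intervals at equal depth span from −0.57 to 0.46, so a change of any member beyond 1.5-fold lay outside its counting interval in these 2 libraries.

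**Figure D4:**
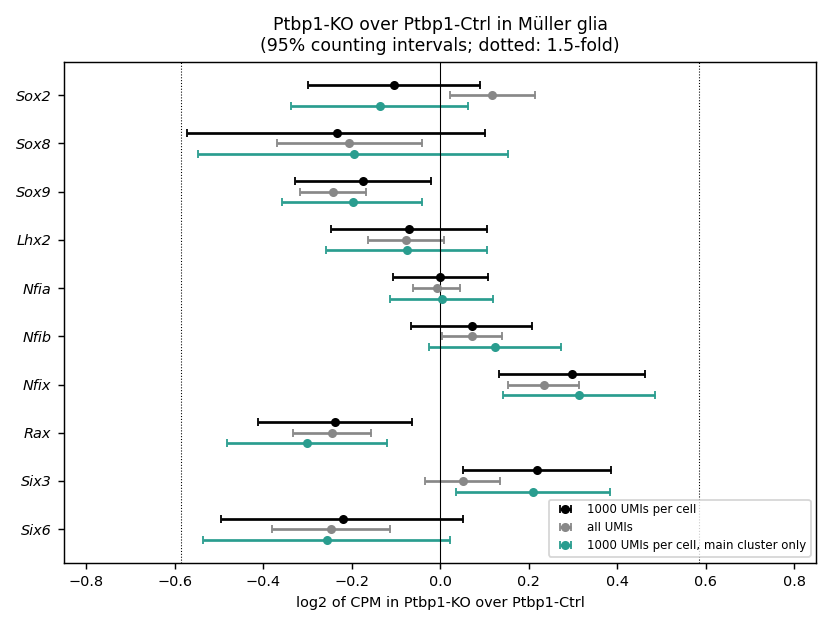
The horizontal axis is the log2 ratio of CPM in Ptbp1-KO over Ptbp1-Ctrl in Müller glia, for the 10 genes on the vertical axis, with black for cells thinned to 1000 UMIs, grey for all UMIs, green for cluster 4 alone and bars for the 95% counting interval. Every point lies inside the dotted lines at 1.5-fold, with Nfix at 0.30 to the right and Rax at −0.24 to the left.

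Marker genes were measured beside the factors in Müller glia. Of the 9 Müller glia markers, 5 had an interval above 0 and none below. Over the 4191 genes with a mean of at least 50 CPM, 10.1% lay above 0 and 12.5% below. The median log2 ratio was 0.11 over the markers and −0.02 over those genes. Several markers have high counts, so small ratios leave 0, as for Apoe at 0.08 (0.04 to 0.11). Glul gave 0.02 (−0.02 to 0.05) and Rlbp1 −0.02 (−0.10 to 0.06), while Clu, a secreted chaperone, gave 0.37 (0.30 to 0.43). Among rod genes in Müller glia, Sag was at 1646 CPM in the control and 1278 CPM in the mutant library, Gnat1 at 859 and 791 CPM, Pde6g at 776 and 529 CPM and Pde6b at 295 and 214 CPM. Bipolar markers summed to 343 and 365 CPM and amacrine markers to 25.3 and 31.5 CPM, with each marker detected. Whether the lower rod RNA in Ptbp1-KO Müller glia bears on the member ratios was not tested.

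In the other cell types, no member with a mean of at least 50 CPM passed 1.5-fold between genotypes. That covers Nfia, Nfib, Nfix, Six3 and Six6 in amacrine cells, where 5.13% of genes passed, Nfia, Nfib and Six3 in bipolar cells (1.13% of genes), Rax, Six3 and Six6 in cones (10.1% of genes) and Rax in rods (2.47% of genes). Six3 was higher in amacrine cells of Ptbp1-KO, with a log2 ratio of 0.28 (0.01 to 0.56). Within amacrine clusters 6, 14 and 15 it was 0.22 (−0.15 to 0.60), 0.31 (−0.30 to 0.92) and 0.12 (−0.45 to 0.71). Cluster 6, the highest of them in Six3, held 251 of 625 thinned amacrine cells in Ptbp1-Ctrl and 429 of 892 in Ptbp1-KO. Rax was lower in rods, at −0.19 (−0.34 to −0.05). Within rod clusters 0, 1, 2 and 3 its ratios were −0.20, −0.06, −0.24 and 0.03, and each interval held 0. Cluster 0 held 1965 of 5903 thinned rods in Ptbp1-Ctrl and 3092 of 6175 in Ptbp1-KO. The part of this cluster mix was not tested. Rax was also lower in bipolar cells, where its level was low (34.2 and 23.1 CPM), at −0.56 (−1.05 to −0.09). In cones the Rax ratio was 0.26 (−0.18 to 0.70), an interval that held 0. TMM scaling shifts rod ratios by 0.13 on the log2 scale, and the Rax ratio in rods then became −0.32, whereas cells thinned to 2000 UMIs gave 0.026.

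Nfia was low in rods of both libraries but higher in Ptbp1-KO, at 13.2 CPM (10.4 to 16.5) and 22.3 CPM (18.8 to 26.4). The log2 ratio was 0.76 (0.35 to 1.18) at equal depth and 0.43 (0.18 to 0.69) with all UMIs. These rod levels were 1.30% and 2.19% of the Müller glia levels, beside 0.487% to 1.25% in Ptbp1-Ctrl and 0.417% to 1.15% in Ptbp1-KO for Glul, Rlbp1 and Apoe. That yardstick covers free RNA of Müller glia alone. Nfia was also at 525 and 536 CPM in amacrine and 461 and 455 CPM in bipolar cells, whose free RNA was not measured. The rod values are therefore not placed above background. A UMI of Nfia was seen in 1.22% (0.956 to 1.53) of Ptbp1-Ctrl rods and 2.06% (1.72 to 2.44) of Ptbp1-KO rods. Nfib and Nfix in rods did not follow, with log2 ratios of −0.30 (−0.83 to 0.23) and −0.21 (−0.75 to 0.33).

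By deposited cluster, 73 combinations of a member and a cluster had a mean of at least 50 CPM, and the interval of the genotype ratio lay above 0 in 4 and below 0 in 6. Over all genes at that level in the same 21 clusters, 4.97% of 85437 combinations lay above 0 and 5.37% below. Of the 10, the 4 past 1.5-fold were in bipolar clusters, and 5.16% of the 85437 combinations had both an interval off 0 and a ratio past 1.5-fold. Six3 in cluster 18 rested on 17 and 35 UMIs (log2 ratio 1.37, 0.50 to 2.30), and in cluster 5 on 29 and 45 UMIs (0.79, 0.09 to 1.52). Nfib in cluster 9 had 177 and 96.9 CPM (−0.87, −1.56 to −0.21), and Rax in cluster 21 rested on 17 and 3 UMIs. Nfia in cluster 20 was 1781 and 1238 CPM, a log2 ratio of −0.52 (−0.81 to −0.24), short of 1.5-fold.

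Close relatives of the members were mostly at low levels in Müller glia. Nfic, Six5 and Lhx9 had at least 20 UMIs over both libraries, and Sox3, Sox10, Six2 and Six4 had fewer. Nfic, the fourth nuclear factor I gene, stood at 117 and 118.5 CPM, with a log2 ratio of 0.02 (−0.30 to 0.34). Lhx9, a LIM-homeodomain relative of Lhx2, was at 19.8 and 8.53 CPM (33 and 10 UMIs), a log2 ratio of −1.22 (−2.40 to −0.16). Six5 had 24 and 28 UMIs, with a ratio of 0.73 (−0.11 to 1.58), and Sox10, an oligodendrocyte factor, had none.

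Of 26 other regulators of progenitors and glia, 25 were in the table and 23 had at least 20 UMIs. Of these 23, 5 had an interval above 0, 4 below 0 and 14 that held 0, and the median log2 ratio was 0.02. Over all 4191 genes at 50 CPM or more in Müller glia, 10.1% lay above 0 and 12.5% below. The Notch effectors went different ways: Hes1 was higher in Ptbp1-KO (471 and 592 CPM, 0.33, 0.18 to 0.48) and Hes5 lower (148 and 95.5 CPM, −0.63, −0.97 to −0.30), while Hey2 gave 0.31 (−0.07 to 0.69). Hes5 was the one gene of the 23 past 1.5-fold, against 4.46% of those 4191 genes. Pax6, a paired-box factor of retinal progenitors, was at 0.18 (0.04 to 0.33). The inhibitors of basic helix-loop-helix factors Id2 and Id3 were at 0.26 (0.08 to 0.44) and −0.27 (−0.44 to −0.10). Nr2e1, an orphan nuclear receptor of neural progenitors, was at 81.2 and 54.6 CPM (−0.57, −1.03 to −0.13), Rora at 0.13 (0.05 to 0.22) and Zbtb20, a zinc finger factor of astrocytes, at −0.10 (−0.18 to −0.02).

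Transcripts that overlap or lie opposite 3 members were measured beside them, because reads of overlapping genes can be split between them. Sox2, a gene of 1 exon, lies within Sox2ot, a long noncoding RNA transcribed from the same strand of chromosome 3 (34104270 to 34682619 in mm10). Sox2ot was at 174 and 246 CPM in Müller glia, a log2 ratio of 0.50 (0.26 to 0.74), beside −0.10 for Sox2. Six3os1 overlaps Six3 on the opposite strand of chromosome 17 and was at 292 and 390 CPM, a log2 ratio of 0.42 (0.23 to 0.61), beside 0.22 for Six3. Both noncoding genes kept an interval above 0 with all UMIs, at 0.40 (0.28 to 0.52) and 0.55 (0.46 to 0.65). With all UMIs, Sox2 was at 0.12 (0.02 to 0.21) and Six3 at 0.05 (−0.03 to 0.13). 4930447C04Rik, which overlaps Six6 on the opposite strand, gave −0.09 (−0.40 to 0.21).

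The genes whose pattern over 10 sums (5 cell types in each of the 2 libraries) was most like that of each member were sought among 6867 genes reaching 50 CPM in at least 1 sum. Pearson correlations of log2(CPM + 1) for the 3 most similar genes lay between 0.972 and 0.997, and the 10 points share libraries and depth. For Sox2 they were S1pr1, Snhg18 and Itga9, for Sox8 Fkbp11, Rdh10 and Ctsc, for Sox9 Inhba, Plpp3 and Heph, and for Lhx2 St8sia2, Gm29260 and Flt1. For Nfia they were E130114P18Rik (which overlaps Nfia on the opposite strand), Tmtc2 and Stmn1, for Nfib Cd63, Sorl1 and Lrp1, and for Nfix Synpr, Sema6a and Srebf2. Rax went with Crb1, Add3 and Eci1, Six3 with Trim35, Setd7 and Ldb1, and Six6 with Gnb2, Atxn7l3b and Ufc1.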

How the data were processed

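Retinas were profiled by 10x Genomics 3' ScRNA-seq. Per the labels, the authors used Cell Ranger 7.0.1, mm10 and Seurat (major version 4), and their methods describe filters on genes, UMIs and mitochondrial share per cell, Louvain clusters and cell types named from markers. The deposited table held raw UMI counts of 25778 genes in 30943 cells, and the deposited cell table held UMI totals as counts, the mitochondrial percent, cluster numbers and cell type names; 3 further columns were not used. The annotation used for counting, its strand setting and any removal of doublets are not given in the sources used here; no doublet caller was run, and a count without the deepest 5% of cells of each library and type was tried instead.

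Cells were thinned without replacement to 1000 UMIs. UMIs were summed by library and deposited cell type, with exact Poisson intervals for CPM, exact conditional binomial intervals for ratios and Clopper-Pearson intervals for shares, at 95%. Neither UMIs nor cells replicate a genotype, and none of the values is a test of it. A count of 0 allows up to 3 UMIs. Gene positions came from GENCODE on mm10. Versions were Python 3.11.15, numpy 2.4.6, scipy 1.17.1, pandas 2.3.3 and edgeR 4.0.16, the last used for TMM factors (trimmed mean of M-values). Ratio code was tested on simulated counts of 4203 genes for the Müller glia comparison, in which 97.5% of 200 genes changed 2-fold were past 1.5-fold and 0.575% of the others. The genes named are the 10 members, fixed lists of relatives, regulators, overlapping transcripts and cell type markers, Ptbp1, and the 3 genes most like each member. Members and lists were chosen with earlier results of these data known. Some genes of the lists are not reported here.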

Additional observations from a re-analysis of the deposited data

Results flagged for a closer look

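Nfib and Nfix were marked because, with all UMIs counted, their ratio of Ptbp1-KO over Ptbp1-Ctrl had opposite signs in different cell types with counting intervals that left out 0. Nfib had a log2 ratio of 0.071 (0.003 to 0.14) in Müller glia, −0.31 (−0.48 to −0.13) in amacrine cells and −0.15 (−0.24 to −0.07) in bipolar cells. Nfix had 0.23 (0.15 to 0.31) in Müller glia and 0.35 (0.16 to 0.55) in bipolar cells, against −0.29 (−0.44 to −0.13) in amacrine cells. The difference between cell types was not tested, since each genotype has 1 library. At 1000 UMIs per cell the intervals of Nfib held 0 in these 3 types, and that of Nfix left out 0 in Müller glia but not in amacrine cells (−0.16, −0.45 to 0.13) or bipolar cells (0.26, −0.12 to 0.63). The median depth of amacrine cells was 2600.5 and 3928 UMIs, and their clusters 14 (Nfib and Nfix) and 15 (Nfia) held 223 and 160 cells in Ptbp1-Ctrl and 214 and 253 in Ptbp1-KO; the part of these numbers in the ratios was not tested. Within cluster 14 at 1000 UMIs per cell, Nfix was at 691 and 841 CPM, a log2 ratio of 0.28 (−0.04 to 0.60). Nfib was at 477 and 528 CPM there, a log2 ratio of 0.15 (−0.25 to 0.54). Both intervals held 0.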

How the results depend on the processing

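The count of 0 members past 1.5-fold in Müller glia was the same in each of 10 alternatives, and the 4 members at least 4-fold higher in Müller glia were 4 in each of 9, of which cluster 4 alone was chosen after seeing the data. The number of members higher in Ptbp1-KO Müller glia, 2, became 3 with all UMIs, 0 at 700 UMIs per cell, 1 at 2000 and 0 without the deepest 5% of cells. The number lower, 2, became 4 with all UMIs and 4 at 2000. More UMIs narrow the intervals of all genes. The share of all genes with an interval off 0 is not given at these settings, for members or regulators. Their median log2 ratio, −0.09, became 0.029 at 700 UMIs. The share of all genes past the fold, 4.46%, became 2.43% with all UMIs, 12.7% with a minimum of 10 CPM and 0.644% at 2-fold. Of the other regulators, 11 were higher with all UMIs, 3 at 700, 8 at 2000 and 9 without the deepest cells, in place of 5, and 2 were lower at 700 in place of 4; their median, 0.02, became 0.11 at 2000 and 0.16 without the deepest cells. Outside Müller glia 1 member passed 1.5-fold at 700 UMIs (Six6 in amacrine cells, −0.73), 2 with a second random draw (Nfib in amacrine cells, −0.62, and Six3 in cones, −0.78) and 1 without the deepest cells (Six3 in cones, −0.61). Rax in rods changed sign at 2000 UMIs, from −0.19 to 0.026. In cones, where the equal-depth intervals held 0, Rax went from 0.26 to −0.23 with a second random draw. Six6 in cones went from −0.16 to 0.47 without the deepest cells. The causes were not tested. Of 90 alternative log2 ratios of single members in Müller glia, 85 stayed within the counting interval at equal depth, and 91 of 96 did so in the other types. Of 180 alternative CPM values of single genes, 146 were counted as the same and 34 as moved. No paired analysis was possible because each genotype has 1 library, and for the same reason no library could be left out. Depth limits Sox8 and Six6 most in Müller glia, with 120 and 181 UMIs in thinned Ptbp1-KO cells.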

Other observations

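The 2 rarest neuronal types were too small for the comparisons above, and their values are given with all UMIs. Among horizontal cells, Six3 was at 433 CPM (48 UMIs, 319 to 575) in the 17 of the control and 187 CPM (8 UMIs, 80.6 to 368) in the 7 of the mutant library. In cells named retinal ganglion cells it was at 244 CPM (52 UMIs) and 109 CPM (20 UMIs), found in 12 of 124 and 10 of 97 cells. Nfia was detected in 9 of 17 and 4 of 7 horizontal cells, at 126 and 140 CPM. Rax in ganglion cells was at 93.9 and 49.0 CPM. Sox2, Sox8, Sox9 and Lhx2 had no UMI in either type in either library, which in ganglion cells allows up to 14.1 CPM (control) and 16.3 CPM (mutant).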
